A study of Mus musculus with 95 samples.

Results

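The 51 probes described here were those that set normal cortical epithelium of the mouse thymus apart from the other sampled cell classes, out of 20175 probes of a whole transcriptome panel. They were chosen on control tissue alone and were then followed into the segments of thymoma. For the choice, counts were pooled over all segments of a control class and expressed as log2(CPM + 1), where CPM is the probe's count scaled to a fixed library total. A probe had to reach 30 CPM in cortical epithelium, lead medullary epithelium by 0.5 and lead cortical T cells by 0.3 on that log2 scale. 60 probes passed these 3 thresholds, and the 51 members were the ones whose level in cortical epithelium also lay above all 4 other control classes. The distance to the highest of those 4 classes is called the lead, and members are numbered by it, from rank 1 with the widest lead to rank 51. The deposited files identify probes only by an ID and do not pair any of the 51 IDs with a gene, so functions and sequences of single members are not given.

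The thymic cortex is the zone where immature T cells are selected for receptors that can recognise self-MHC molecules, and its epithelial cells form a mesh among densely packed thymocytes. Medullary epithelium is a separate lineage known for displaying tissue antigens to developing T cells. Both descend from progenitors that depend on the transcription factor Foxn1. Thymoma is a tumour of thymic epithelium that often keeps immature T cells within it, and the general transcription factor gene GTF2I is recurrently mutated in human thymoma.

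Formalin-fixed thymus of 8 mice was profiled on 4 slides with the GeoMx method, in which probes hybridised to RNA are released by light from chosen masks and counted by sequencing. The 4 thymoma mice (1042, 1044, 1082 and 1157) carried the Gtf2i L424H knock-in with the genotype Gtf2ifl/wt Foxn1-Cre/wt, so that Cre was driven by the promoter of Foxn1. Of the 4 controls, mice 1057 and 1059 were Gtf2ifl/fl and mice 1172 and 1143 were Gtf2ifl/wt, with no Cre in the label. Strain and age are not given in the sources used here. Epithelium was masked by pan-cytokeratin, T cells by CD3 and B cells by B220. Control tissue gave 13 segments of cortical epithelium, 11 of medullary epithelium, 13 of cortical T cells, 11 of medullary T cells and 10 of B cells, while thymoma gave 13 epithelial segments, 12 T cell segments and 12 B cell segments. Mouse 1059 had no medullary segments. Each slide held 2 mice of 1 genotype, so slides lay within groups. Differences between slides and between thymoma and control therefore cannot be told apart in any comparison with control tissue. The masks could not be checked against marker genes without gene names, and a mask can take in RNA of neighbouring cells. Counts summed over the segments of a mouse and class formed 30 libraries. Control mouse 1143 was far shallower than the rest, with 45.4 to 77.4 counts per nucleus and library totals of 63805 to 874379. The other 13 control libraries had 544.2 to 2173 counts per nucleus, and library totals in thymoma ran from 3286275 to 17653470.

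The values that chose the members are given as a description. Leads ran from 0.09 to 3.08 on the log2 scale with a median of 0.60, and pooled levels in cortical epithelium ran from 34.2 to 1045 CPM with a median of 109. Cortical T cells were the closest other class for 22 members, medullary epithelium for 15, B cells for 12 and medullary T cells for 2. At the edge, the last 3 members had leads of 0.13, 0.12 and 0.09, and the first 3 probes outside had leads of -0.37, -0.40 and -0.42. Mouse 1057 alone held 70.0% of the pooled counts of cortical epithelium, followed by 16.9% for mouse 1172, 12.2% for mouse 1059 and 0.85% for mouse 1143. The members were therefore chosen mainly on mouse 1057.

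The members made up the largest share of counts in thymoma epithelium of the 8 classes sampled. In thymoma epithelium they took 2.36% of counts in mouse 1042, 1.64% in mouse 1044, 1.62% in mouse 1082 and 1.60% in mouse 1157. In thymoma T cells of the same mice the shares were 1.35%, 1.05%, 0.61% and 0.73%. In thymoma B cells they were 0.45%, 0.53%, 0.40% and 0.30%. Each of the 4 mice thus showed the order epithelium, T cells, B cells, and no epithelium library overlapped with a T or B cell library. The means were 1.80% ± 0.37 for epithelium, 0.94% ± 0.33 for T cells and 0.42% ± 0.09 for B cells (SD, n = 4 each).

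The difference between epithelium and T cells within a mouse averaged 0.87 percentage points (SD 0.20) and was positive in 4 of 4 mice. The difference between epithelium and B cells averaged 1.38 points (SD 0.36), and that between T cells and B cells 0.51 points (SD 0.29), again positive in 4 of 4 mice. An exact two-sided sign-flip permutation test over the 4 mice gave p = 0.125 for each of these 3 differences, the smallest value that 4 pairs allow. In control cortical epithelium, where the members were chosen, the share was 0.94% ± 0.13 (SD, n = 4). It was 0.47% ± 0.07 in cortical T cells and 0.45% ± 0.18 in B cells (n = 4 each), and 0.38% ± 0.10 in medullary epithelium and 0.34% ± 0.12 in medullary T cells (n = 3 each). The means of thymoma T cells and of control cortical epithelium were thus both 0.94%, which was not tested. Fewer cells of a type within a mask and less RNA per cell cannot be told apart in such segments.

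**Figure D1:**
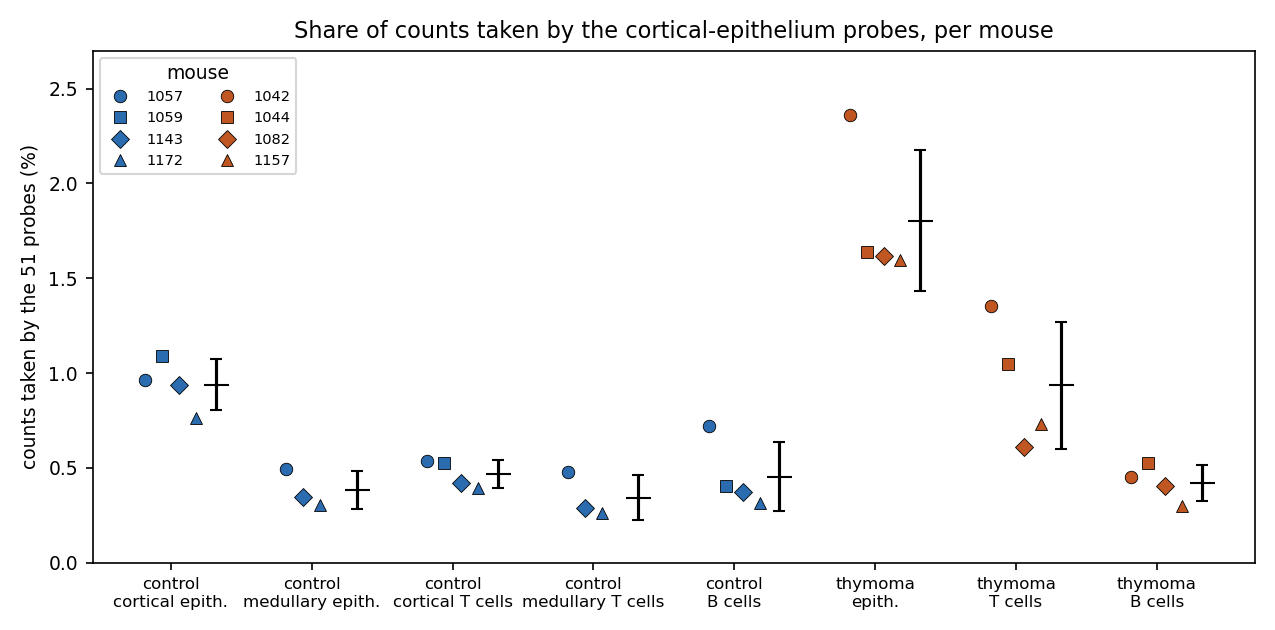
Percentage of all counts taken by the 51 probes in each segment class (x axis, controls in blue, thymoma in orange), with 1 symbol per mouse and the mean with its SD beside the symbols. The 4 thymoma epithelium libraries lie between 1.60% and 2.36%, above every library of the other classes.

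The gap between epithelium and T cells was seen in most members. Of the 51 members, 42 were higher in thymoma epithelium than in thymoma T cells and 0 were lower (edgeR quasi-likelihood test with the mouse as a block, Benjamini-Hochberg adjusted p below 0.05 over all 20175 probes). Among all probes, 14.2% were called higher and 11.0% lower in this comparison, or 2865 against 2227, a split that became 2430 against 3859 under upper-quartile scaling. The median log2 fold change of the members was 0.86, beside -0.03 for all probes. The called members ran from 0.28 to 1.59 on the log2 scale, and 21 of them exceeded 1. Without the mouse as a block, 0 members were called, while their median log2 fold change was 0.82. Calls over all probes in that fit were not compared, so the 0 cannot be read as particular to the members. Epithelium libraries had 1076 to 3160 counts per nucleus and T cell libraries 1020 to 2048, and the part of this difference in the result was not tested.

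Gaps to B cells were wider. Thymoma B cell segments lay in other regions than the epithelium and T cell segments. Class and region therefore cannot be told apart in any comparison with thymoma B cells. In thymoma epithelium against thymoma B cells, 45 of 51 members were higher and 1 was lower by the same edgeR test, where 18.1% of all probes were called higher and 11.3% lower (3661 against 2279, or 2703 against 4855 under upper-quartile scaling). The median log2 fold change was 1.77, and 18 of the members called higher exceeded 2. In thymoma T cells against thymoma B cells, 35 members were higher and 0 lower, beside 12.8% and 7.20% of all probes, with a median of 0.93. Of all probes, 2580 were higher and 1453 lower there, against 2172 and 2064 under upper-quartile scaling. A stepwise order, with calls for epithelium above T cells, epithelium above B cells and T cells above B cells, held for 32 of the 51 members, beside 2.81% of all probes. Another 10 members were higher in epithelium than in T cells and were not called between T and B cells.

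**Figure D2:**
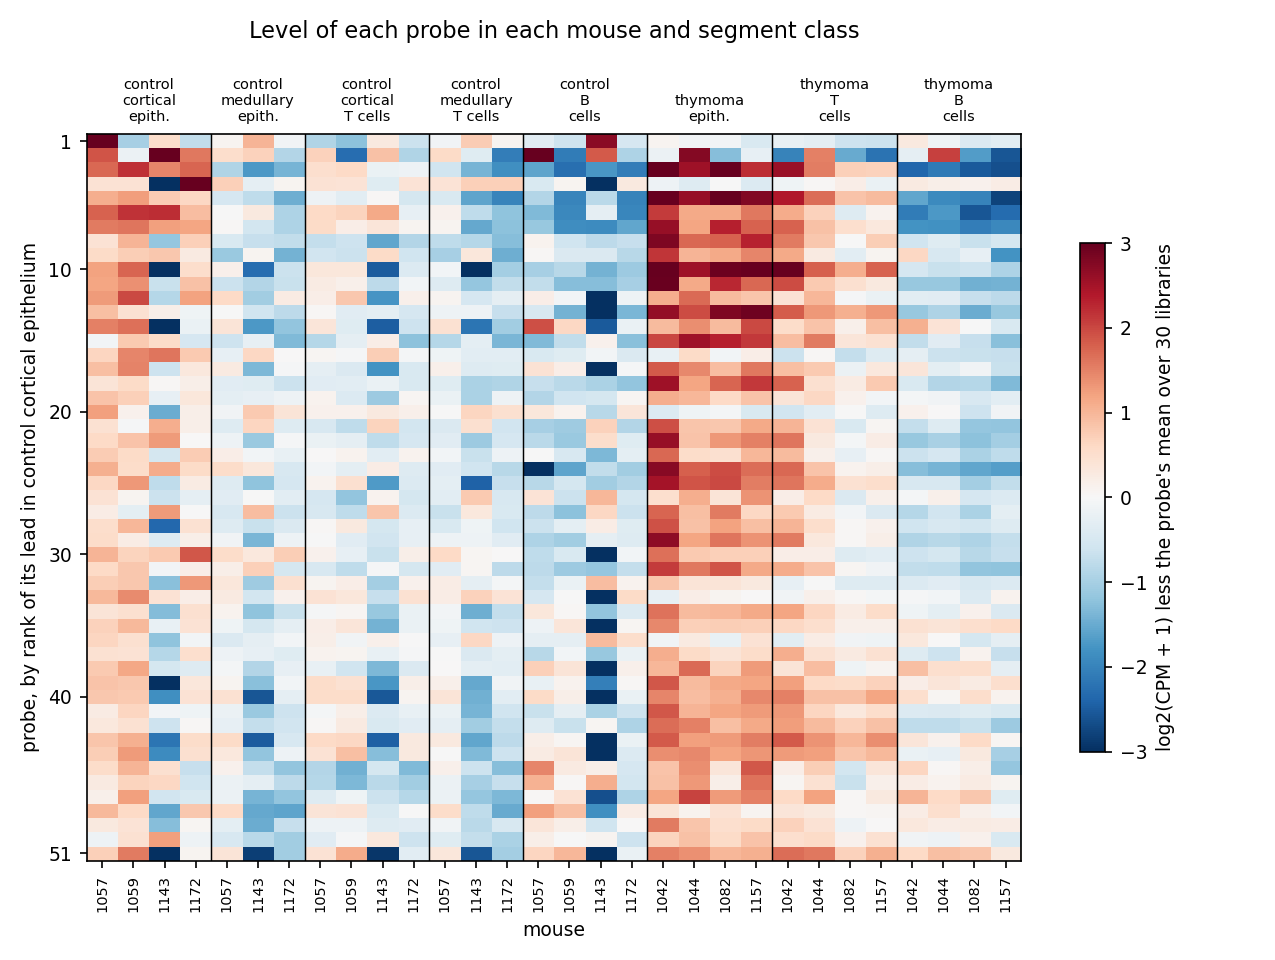
Level of each member (rows, by rank) in each of the 30 libraries (columns, mice grouped by class), as log2(CPM + 1) less the member's own mean over the libraries; red is above and blue below that mean. Most rows are red in thymoma epithelium and pale to red in thymoma T cells, while rows 1 and 4 have a single red cell each in control cortical epithelium, in mice 1057 and 1172.

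RTS0074707 and RTS0081138, at ranks 3 and 5, had the widest gaps between thymoma epithelium and thymoma T cells among the members called. RTS0074707 stood at 3279 CPM in thymoma epithelium of mouse 1042, 1244 in mouse 1044, 1853 in mouse 1082 and 999.9 in mouse 1157. In thymoma T cells of those mice it stood at 1296, 623.8, 351.2 and 342.8 CPM. In thymoma B cells it lay between 33.8 and 48.7 CPM. Epithelium exceeded T cells within every mouse, although the T cell library of mouse 1042 lay above the epithelium libraries of mice 1044 and 1157. The log2 fold change against T cells was 1.59 ± 0.16 (SE, n = 4 mice, edgeR adjusted p = 3.24e-07), and against B cells it was 5.51 ± 0.34, the highest of all members.

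RTS0081138 stood at 3845, 2198, 3240 and 2466 CPM in thymoma epithelium of mice 1042, 1044, 1082 and 1157. In T cells it stood at 1906, 1154, 647.6 and 696.7 CPM, so the lowest epithelium library lay above the highest T cell library. Thymoma B cells lay between 51.7 and 121.5 CPM. The log2 fold change against T cells was 1.54 ± 0.18 (SE, edgeR adjusted p = 2.24e-06), and against B cells 5.20 ± 0.31. In control cortical epithelium RTS0081138 had 693.5 CPM ± 137.7 and RTS0074707 had 745.8 CPM ± 167.2 (SD, n = 4 mice). Every thymoma epithelium library exceeded every control cortical epithelium library for both probes. The lowest thymoma values were 2198 and 999.9 CPM, against highest control values of 853.4 and 981.5 CPM. In edgeR the log2 fold change was 2.24 for RTS0081138 (adjusted p = 0.0135) and 1.47 for RTS0074707 (adjusted p = 0.0727, not called). Segments of RTS0074707 overlapped, with a lowest thymoma value of 909.8 CPM and a highest control value of 1100 CPM. The members were chosen on this control class, so these values are a description.

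The 9 members that were not called between thymoma epithelium and T cells had log2 fold changes of -0.18 to 0.24. Of these, 4 were higher in epithelium than in B cells, 1 was lower and 4 were not called there either. They held ranks 4, 20, 33, 36, 37, 40, 43, 48 and 51. 5 of the 9 were also among the 17 of all 51 members that dropped out of the choice when some control segment was left out, as described further on. Ranks 40 and 43 each dropped out on the loss of any 1 of 12 segments.

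Single regions, read from the same counts before they were summed, also had epithelium above T cells. Epithelium and T cell segments came from shared regions, and in 12 of 12 thymoma regions the members took a larger share of counts in the epithelium segment. The median difference between the paired segments over members ran from 0.22 to 1.11 on the log2(CPM + 1) scale, and 42 to 50 of the 51 members were higher in epithelium. Over all probes the median difference in these regions ran from -0.11 to 0.02, and 36.8% to 53.7% of probes were higher in epithelium. The lowest member median, 0.22, was in a region of mouse 1044 with shares of 1.21% against 0.99%, and the highest, 1.11, in a region of mouse 1157 with 1.89% against 0.81%. In control cortex 13 of 13 regions had the larger share in epithelium, a direction that the choice on pooled counts favours. In 1 thinly counted region of mouse 1143 the median difference was -3.79 for the members and for all probes alike.

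**Figure D3:**
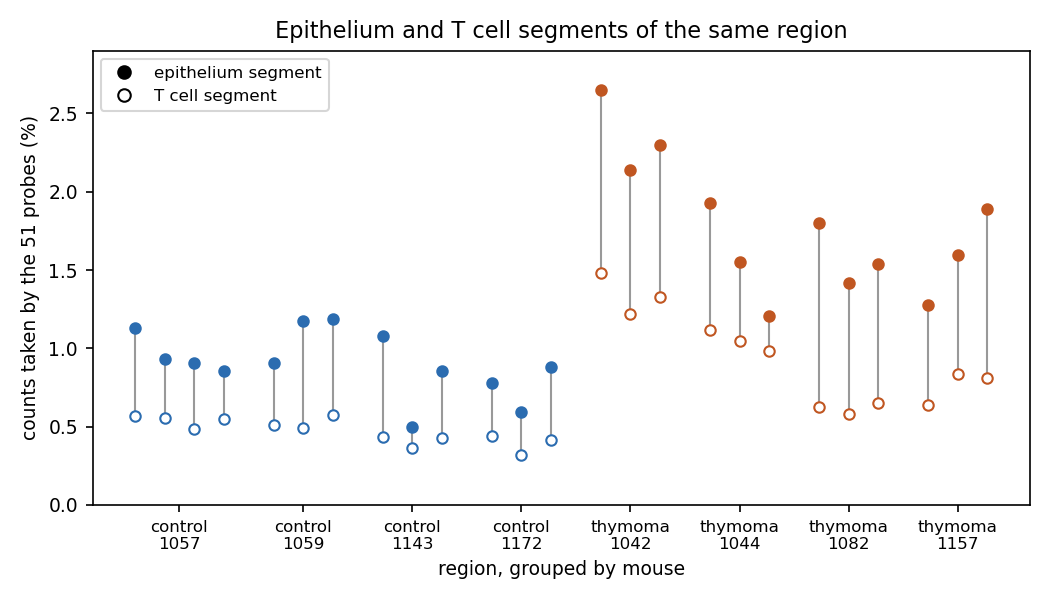
Percentage of counts taken by the 51 probes in the epithelium segment (filled) and the T cell segment (open) of each region, joined by a line and grouped by mouse. All 12 thymoma and all 13 control lines rise from the T cell to the epithelium segment, and thymoma mouse 1042 holds the highest values of both kinds.

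The thymoma mice differed in how strongly they expressed the members. Mouse 1042 had the highest epithelial level for 33 of 51 members, against 9 for mouse 1044, 6 for mouse 1157 and 3 for mouse 1082. Its 4 epithelium segments took 2.14% to 2.65% of counts, above all 9 segments of the other mice, which lay between 1.21% and 1.93%. The distance between the highest and the lowest thymoma mouse exceeded 1 on the log2(CPM + 1) scale for 20 of 51 members (39.2%), with a median of 0.95. Of the 8842 probes with a mean of at least 30 CPM in thymoma epithelium, 4.48% had a distance above 1, and their median was 0.37. These figures describe the spread and were not tested.

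The members did not all follow one another. Over the 13 thymoma epithelium segments, the Pearson correlation of a member with the mean of the other members had a median of 0.67, was above 0.5 for 32 members and was below 0 for 9. With the mean of each mouse removed, the median was 0.47 and 8 members lay below 0. The segments share mice and are few, so these values are a description. Across the 51 members, the pooled difference between epithelium and T cells in control cortex had a correlation of 0.28 with the fold change between the same compartments in thymoma. Without ranks 1 and 4, left out after their values were seen, it was 0.73 over 49 members. Probes are not independent replicates and the control difference was used in the choice.

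2 of the best-ranked members owed their place to 1 control segment each. RTS0080929, at rank 1, had 365.1 CPM (747 counts) in 1 of the 4 cortical epithelium segments of control mouse 1057, and 0 to 26.1 CPM in the other 12 segments of that class. The pooled level was 64.6 CPM with that segment and 3.95 CPM without it. In thymoma epithelium RTS0080929 had 6.78, 5.89, 5.93 and 4.40 CPM in mice 1042, 1044, 1082 and 1157, which lies within the range of the other control segments. RTS0072870, at rank 4, had 994.6 CPM (429 counts) in 1 of the 3 cortical epithelium segments of control mouse 1172. The other 12 segments of the class had 0 to 35.2 CPM, and the pooled level was 53.4 CPM with the high segment and 18.8 CPM without it. In thymoma epithelium it had 12.1, 10.1, 13.5 and 10.0 CPM. Both probes lay under the median probe of every thymoma epithelium library, as did 4 members in all.

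These were also the members with the lowest fold changes of thymoma epithelium against control cortical epithelium, at -2.79 ± 0.58 for RTS0080929 and -2.58 ± 0.60 for RTS0072870 (log2, SE, 4 against 4 mice). Without mouse 1057 the value for RTS0080929 was 0.99, and without mouse 1172 that for RTS0072870 was -0.49. For RTS0072870 it was also -0.52 against the Gtf2ifl/fl controls alone and -0.01 with limma on mean log2 CPM over segments. RTS0080929 was among the 42 members called higher in thymoma epithelium than in thymoma T cells, at 0.39 ± 0.14 on the log2 scale with an edgeR adjusted p of 0.0486. RTS0072870 was the member called lower in thymoma epithelium than in thymoma B cells, at -0.35 ± 0.11 with an edgeR adjusted p of 0.0295.

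The choice was repeated without each of the 58 control segments in turn. 34 of the 51 members were chosen again every time, and 17 dropped out at least once, 7 of them with ranks past 40. The 34 members chosen every time had 30 calls for epithelium above T cells in thymoma and 0 for the opposite, with a median log2 fold change of 1.01. This count was made after the data had been seen. Weighting the 4 control mice equally in the choice gave another list, of 148 probes, that held 35 of the 51 members. Of the other 113 probes, 92 had their highest control cortical epithelium level in the shallow mouse 1143, where their median was 8 counts. On that list 65 probes were higher and 12 lower in thymoma epithelium than in thymoma T cells, beside 14.2% and 11.0% of all probes. The median log2 fold change of the list was 0.090, while 31 of the 35 shared members were called higher.

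The member at rank 2 was uneven for another reason. Its control cortical epithelium segments ran from 22.2 to 5283 CPM, and its thymoma epithelium segments from 31.97 to 3424 CPM. Mouse 1044 had 2128 CPM in thymoma epithelium, 892.2 in T cells and 1298 in B cells, whereas the lowest values in these classes were 128.2 CPM in mouse 1082, 67.1 CPM in mouse 1157 and 52.0 CPM in mouse 1157. The high level of mouse 1044 thus appeared in all 3 of its classes. Between the highest and lowest thymoma mouse this member spanned 4.04 on the log2(CPM + 1) scale, first among all 20175 probes. Within mice it was nevertheless higher in epithelium than in T cells, at 1.36 ± 0.18 on the log2 scale (SE, edgeR adjusted p = 8.47e-06).

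**Figure D4:**
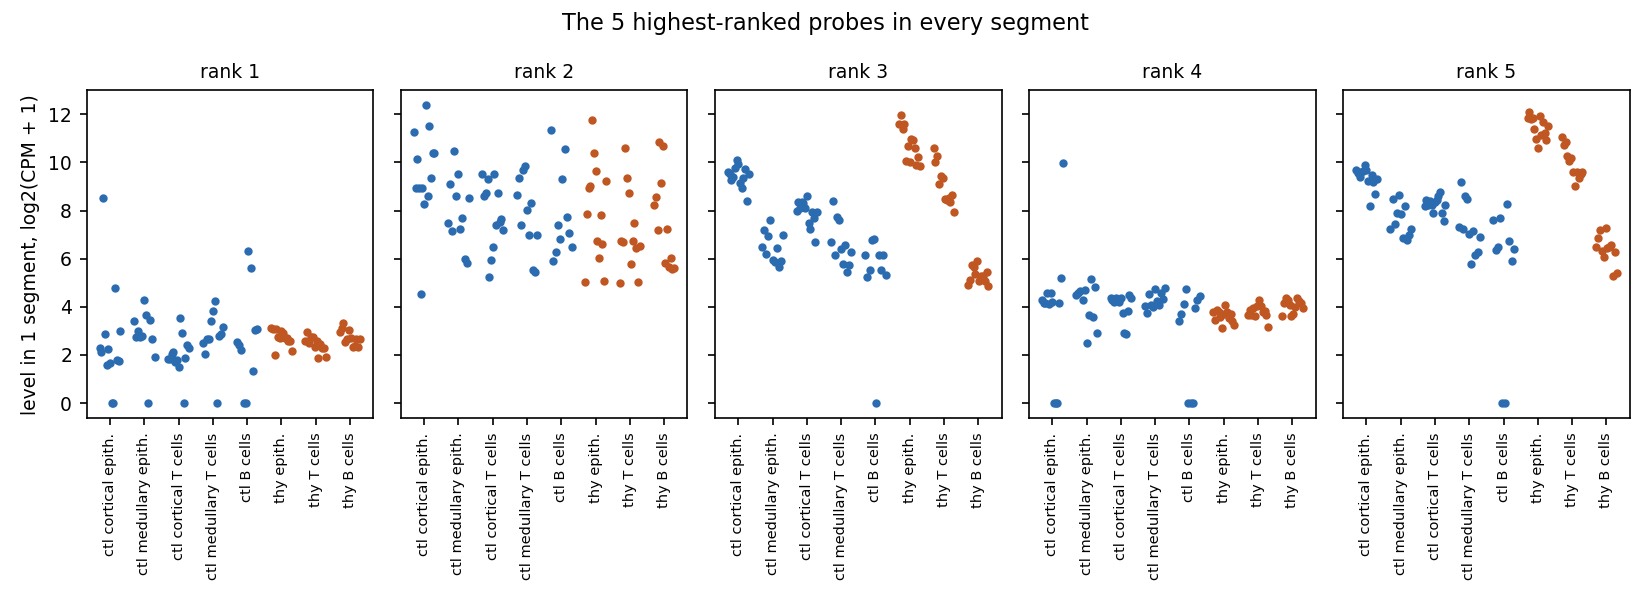
Level in each of the 95 segments, as log2(CPM + 1), of the 5 members with the widest leads, by class (controls in blue, thymoma in orange, 1 point per segment). Ranks 1 and 4 each have a single high point in control cortical epithelium, rank 2 is scattered in every class, and ranks 3 and 5 fall from thymoma epithelium to T cells to B cells.

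Thymoma epithelium was set beside the control class that chose the members as a description, because the choice favours high values in that class. In thymoma epithelium against control cortical epithelium, 13 of 51 members were called higher and 3 lower (edgeR, adjusted p below 0.05), beside 2.40% and 1.03% of all probes. Those shares stand for 484 and 207 probes, which became 407 and 818 under upper-quartile scaling and 731 and 102 with DESeq2. The median log2 fold change was 0.93 for the members and -0.04 for all probes, and 12 members lay below 0. The 13 members called higher ran from 1.30 to 2.44, and each of them was also called higher in thymoma epithelium than in thymoma T cells. The 3 called lower were ranks 1, 4 and 33, the last at -0.77 ± 0.20. In terms of single mice, 19 members lay higher in all 4 thymoma mice than in all 4 controls, 2 lay lower in all, and 30 overlapped, where 5.10% and 11.1% of all probes were fully above or fully below. Without the shallow mouse 1143 these numbers were 22, 5 and 24, with 7.28% and 24.1% of all probes.

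The count of members called against control cortical epithelium changed when single mice were left out, and limma on mean log2 CPM over segments called 0 in either direction. It was 24 higher without mouse 1143, 1 without mouse 1057, 1 without mouse 1172, 6 without mouse 1059, 4 without thymoma mouse 1042 and 8 without thymoma mouse 1157. The number called lower was 0 without mouse 1042 or mouse 1157, and 1 without mouse 1057 or mouse 1059. Against the 2 Gtf2ifl/wt controls alone, which have the Gtf2i alleles named for the thymoma mice, 0 members were called higher and 1 lower, with a median of 1.47. The shallow mouse 1143 is among these controls. Against the 2 Gtf2ifl/fl controls, 5 were higher and 3 lower. Calls over all probes in these refits were not compared, so the changes cannot be read as particular to the members.

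**Figure D5:**
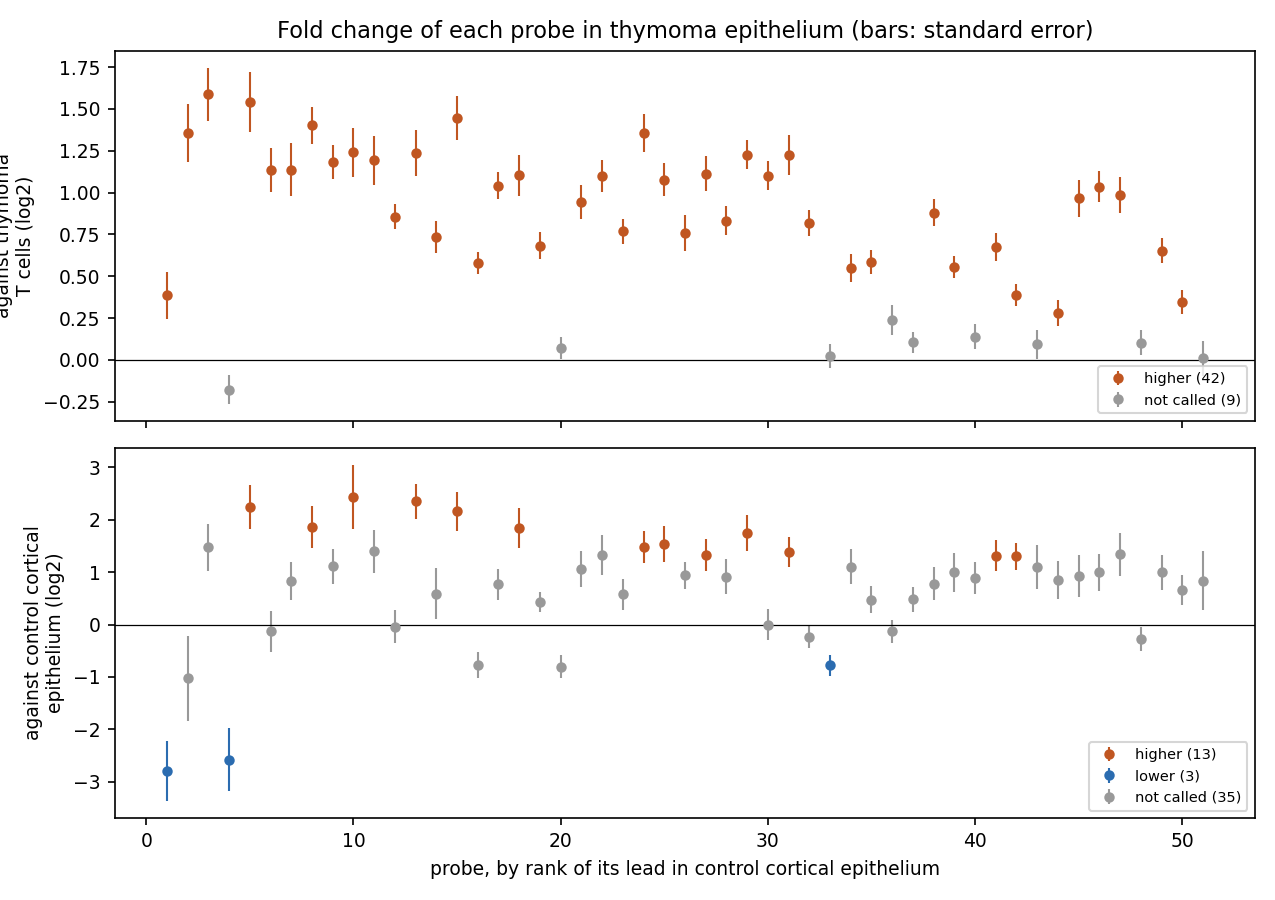
Log2 fold change of each member in thymoma epithelium, against thymoma T cells (top) and against control cortical epithelium (bottom), by rank, with standard errors; orange was called higher, blue lower and grey not called. In the top panel 42 members are orange and none is blue; in the bottom panel 13 are orange and 3 blue, with ranks 1 and 4 lowest.

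Members chosen without a control mouse were read in that mouse. 49 probes were chosen without mouse 1059, 49 without mouse 1143, 44 without mouse 1172 and 134 without mouse 1057, of which 46, 49, 37 and 43 were among the 51 members. In mouse 1059, which has only 2 other classes, 45 of the 49 had cortical epithelium above its other classes, beside 29.9% of all probes. In mouse 1172 this held for 30 of 44, beside 17.3%, and in mouse 1143 for 22 of 49, beside 22.0%. In mouse 1057 it held for 76 of 134, beside 10.2% of all probes. Read on these lists, the median of thymoma epithelium less cortical epithelium of the left-out mouse was 0.55 for mouse 1057, 0.36 for mouse 1059, 1.70 for mouse 1143 and 0.97 for mouse 1172, on the log2(CPM + 1) scale. It was above 0 for all 4 left-out mice, and the highest value belonged to the shallow mouse, in which 3 of the 51 members had 0 counts.

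Against control medullary epithelium, which also entered the choice, 40 members were called higher and 0 lower in thymoma epithelium, beside 7.28% and 2.81% of all probes, with a median log2 fold change of 1.88. All probes split into 1469 higher and 567 lower, or 1170 and 3789 under upper-quartile scaling. Without control mouse 1172 the count was 1, without thymoma mouse 1042 it was 23 and without thymoma mouse 1157 it was 19. Calls over all probes were not compared for these refits either. A list chosen by the same rule with the zones exchanged, of 150 probes specific to control medullary epithelium, had 8 probes higher and 33 lower in that comparison, with a median of -0.30. Against control cortical epithelium, 60 of these 150 medullary probes were higher and 0 lower (40.0% higher, median 0.68). Of the 51 cortical members, 13 were higher (25.5%) and 3 lower. The choice placed the medullary probes lower in control cortical epithelium than in control medullary epithelium. It placed the cortical members highest in control cortical epithelium, so these shares cannot be ranked. The mean level of the medullary list in thymoma epithelium was 5.61 ± 0.17 on the log2(CPM + 1) scale, against 6.03 ± 0.41 in control medullary epithelium (SD, n = 4 and 3 mice). For the cortical members the corresponding levels were 7.44 ± 0.22 in thymoma epithelium and 6.57 ± 0.65 in control cortical epithelium (n = 4 each). That control mean includes the shallow mouse 1143 at 5.65, beside 7.00, 7.04 and 6.60 in mice 1057, 1059 and 1172. Within thymoma, 117 of the 150 medullary probes (78.0%) were higher in epithelium than in T cells and 1 was lower, beside 14.2% and 11.0% of all probes. Their median was 0.58, so a gap between the compartments was not particular to the cortical members. Between thymoma T and B cells the medullary list had 57 probes higher (38.0%) and 5 lower (3.33%), with a median of 0.20. There the cortical members had 35 higher (68.6%) and 0 lower, with a median of 0.93. Of all probes, 12.8% were higher and 7.2% lower. The difference between the lists was not tested.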

How the data were processed

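For each segment the authors deposited a file of unnormalized probe counts, written by GeoMx_NGS_Pipeline 2.0.0 in DCC format 0.02, per the file headers; alignment settings are not given in the sources used here. Part of the deposited files has no usable name for its count column and is recorded under another unit, but holds the same counts. No background was subtracted, since the files do not mark which probes are negative controls. Probes not listed in a file were set to 0.

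Counts were summed per mouse and class. Replicates were mice, which the labels name as separate animals. Groups were compared with edgeR 4.0.16 in R 4.3.3 (quasi-likelihood test, TMM scaling, filterByExpr, which kept all 20175 probes), with the mouse as a block within thymoma because both libraries come from the same animal. Same-mouse libraries deviated together for epithelium and T cells (correlations of 0.63 to 0.81), less so with B cells (-0.01 to 0.64). Adjusted p-values are Benjamini-Hochberg over all probes at 0.05. DESeq2 1.42.0, limma 3.58.1, upper-quartile scaling, no filter, other choices of members and leaving out mice were the alternatives. The scripts were tested on simulated data.

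The members, the medullary list and the tests were chosen with earlier results of these data known. Named IDs are, by rule, the 2 called members with the highest fold change of thymoma epithelium against thymoma T cells and the 2 with the lowest against control cortical epithelium; the rank 2 member and the single segments were singled out after their values were seen. Standard errors were derived from the edgeR test, as the absolute log2 fold change divided by the square root of its F statistic.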

Additional observations from a re-analysis of the deposited data

Results flagged for a closer look

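Among 42 groups of 4 mice that were examined, 8 mice lay far from the other 3 by Dixon's ratio. For groups not picked by their values, chance gives about 1 such group in 20. The probes examined were named by their fold changes or singled out after their values were seen, and the flags share mice and probes. That rate therefore cannot be set beside the 8. The share of counts taken by the 51 members in thymoma epithelium was set apart in mouse 1042, at 2.36%. RTS0080929 stood out in control cortical epithelium of mouse 1057, at 90.9 CPM, which is the single high segment, and in control B cells of mouse 1143, at 47.0 CPM, which is the value of 3 counts in that library. RTS0072870 stood out in control cortical epithelium of mouse 1172, at 225.0 CPM, again 1 segment, and on the low side in control cortical T cells of mouse 1143, at 10.3 CPM. The member at rank 2 stood out in mouse 1044 in all 3 thymoma classes, at 2128 CPM in epithelium, 892.2 CPM in T cells and 1298 CPM in B cells.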

How the results depend on the processing

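Leaving out single thymoma mice gave 40 to 43 members higher in epithelium than in T cells, 43 to 45 higher in epithelium than in B cells (0 to 1 lower) and 31 to 36 higher in T than in B cells (0 to 1 lower). Without the mouse as a replicate block, these numbers were 0, 44 and 30, with 0 lower in each; RTS0074707 and RTS0081138 then lost their calls at log2 fold changes of 1.48 and 1.41 (edgeR adjusted p = 0.274 and 0.179). DESeq2 gave 0 members lower in epithelium than in B cells. Calls over all probes were not compared for the fits that leave out mice or the block. In the comparison with control cortical epithelium the counts varied widely: leaving out single mice gave 1 to 24 members higher and 0 to 4 lower. There, upper-quartile scaling gave 5 lower, DESeq2 23 higher, and limma on mean log2 CPM over segments 0 and 0 with a median of 1.54. Against the Gtf2ifl/wt controls alone 0 were higher and 1 lower (median 1.47), and against the Gtf2ifl/fl controls 5 were higher.

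Against control medullary epithelium, leaving out single mice gave 1 to 42 higher with medians of 1.74 to 2.20, and limma gave 20 higher. Calls over all probes were not compared for these refits. Using the Gtf2ifl/wt controls alone is the same fit as leaving out mouse 1057, with a median of 2.20. The Gtf2ifl/fl controls have medullary segments in mouse 1057 alone; that fit gave 11 higher (median 1.502) and assumes that this 1 mouse varies like the thymoma mice. The 148 probes chosen with control mice weighted equally gave 65 higher and 12 lower for epithelium against T cells (median 0.090), 82 and 10 for epithelium against B cells (0.44), and 59 and 4 for T against B cells (0.23). Their median against control cortical epithelium was 0.11, and 66 were higher against control medullary epithelium (0.62). The 34 members chosen again without any single control segment, an alternative added after seeing the data, gave 0 lower for epithelium against B cells, 23 higher for T against B cells and 1 lower against control cortical epithelium.

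For RTS0080929 against control cortical epithelium the sign turned to 0.48 with limma on mean log2 CPM over segments and to 0.87 against the Gtf2ifl/wt controls, and leaving out single mice gave -3.15 to 0.99; DESeq2 gave it no adjusted p. For RTS0072870 DESeq2 gave -2.34 (adjusted p = 0.175), limma on mean log2 CPM over segments -0.01 (0.998) and the Gtf2ifl/fl controls -0.52 (0.129), none of them called, and leaving out single mice gave -3.06 to -0.49. The low-count filter removed no probe, so results without it equal those reported. Upper-quartile scaling moved the median of all probes to between -0.07 and -0.31 (log2), while the members' median less that of all probes moved by little, from 0.97 to 0.96 against control cortical epithelium. The causes of these changes were not tested. Low counts limit what mouse 1143 can show: a probe with 0 counts in its cortical epithelium may have up to 28.9 CPM (3 counts, counting error only). Another limit is that p-values over 4 mice rest on 2 slides per group.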
